A study of Homo sapiens with 6 samples.

Results

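The BCL2 family apoptosis regulators were followed in Jurkat, a line of human T lymphocytes established from a leukemia. The 10 members were chosen by name, as guardians, effectors and BH3-only genes, from a table of 60856 features. The rule uses no measured value, but it was set with earlier results of these data known. The members were the guardians MCL1, BCL2 and BCL2L1, the effectors BAX and BAK1, and the BH3-only genes BID, BCL2L11, PMAIP1, BBC3 and BAD. Each symbol matched 1 Ensembl identifier. Polyadenylated RNA was sequenced from 3 cultures given bisphenol AF (BPAF, a bisphenol with fluorine atoms) at 1 µM, and from 3 cultures given the vehicle dimethyl sulfoxide (DMSO) at 0.1%. The labels do not say whether the BPAF cultures also received DMSO. All 6 were of the labelled wild-type genotype and of 1 cell line, and the series title sets the exposure in a question about estrogen signaling and inflammation. The treatment labels give 12 h of exposure and the treatment protocol gives 24 h, so the time behind every value below is uncertain. The design text calls the libraries biological replicates, but it does not say that they came from separate days or passages. The p-values therefore set the difference between groups only against the spread among these cultures within each group.

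BCL2 family proteins decide whether the outer membrane of the mitochondrion stays sealed. The effectors BAX and BAK1 form pores through which cytochrome c escapes and activates caspases, and the guardians hold the effectors and their activators in check. BH3-only proteins respond to damage or loss of survival signals by occupying the groove of the guardians, and some of them also activate the effectors directly. T cells and T-cell leukemias depend on this balance for survival, and MCL1 protein in particular is short-lived and must be made continuously.

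The feature that all 10 members share is the BH3 motif, a short helix that in BH3-only proteins fits the guardian groove. The coding bases of its core are shown because they are what makes these genes 1 family. Each stretch holds 33 bases, was read 5′ to 3′ in the coding direction from the principal transcript of GENCODE release 29, and lies within 1 exon. Capitals mark the leucine codon, then the codon before the aspartate and the aspartate codon itself.
MCL1: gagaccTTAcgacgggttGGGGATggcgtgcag
BCL2: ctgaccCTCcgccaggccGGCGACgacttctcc
BCL2L1: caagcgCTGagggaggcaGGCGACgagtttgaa
BAX: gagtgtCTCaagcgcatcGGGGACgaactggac
BAK1: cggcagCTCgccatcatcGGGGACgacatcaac
BID: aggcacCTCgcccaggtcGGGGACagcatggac
BCL2L11: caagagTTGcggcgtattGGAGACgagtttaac
PMAIP1: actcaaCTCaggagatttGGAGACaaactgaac
BBC3: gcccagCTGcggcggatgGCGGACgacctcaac
BAD: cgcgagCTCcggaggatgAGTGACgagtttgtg
The search pattern was a leucine codon, 3 codons of any kind, a glycine, alanine or serine codon, and an aspartate codon. The residues at the marked positions were therefore limited by the search. Within that limit, the codon before the aspartate encoded glycine in 8 of the 10, alanine in BBC3 and serine in BAD. BID and BAK1 were the most alike pair, with 23 of 33 bases the same. BID held 2 matches to the search pattern, and the one shown was kept because it has the glycine codon, so its glycine was part of the choice. In GRCh38 the MCL1 stretch lies at chr1:150578868-150578900 on the minus strand in exon 1 of 3. The BID stretch lies at chr22:17739418-17739450 on the minus strand in exon 4 of 6, and the PMAIP1 stretch at chr18:59902667-59902699 on the plus strand in exon 2 of 2.

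The libraries held 20253656 to 22617613 counts in BPAF cells and 20745097 to 22117976 in DMSO cells (exact two-sided permutation test, p = 0.9). Between 23404 and 23808 features had reads in BPAF libraries and between 22712 and 23141 in DMSO libraries, with no overlap. All 13 T-cell markers were expressed, with summed levels of 3598 to 3760 CPM (counts per fixed number of reads, with TMM factors) in BPAF cells and 3721 to 3802 in DMSO cells, and 0 of 13 passed the test. Of the B-cell markers only CD79A was above the expression filter, and the summed level was 11.7 to 12.5 CPM in BPAF cells and 12.8 to 15.1 in DMSO cells. Summed myeloid markers stayed under 1 CPM, at 0.441 to 0.509 in BPAF cells and 0.366 to 0.924 in DMSO cells. Summed epithelial and fibroblast markers were 3.53 to 3.68 CPM in BPAF cells and 3.29 to 3.41 in DMSO cells, with EPCAM, CDH1 and DCN at 0 counts in every library. The B-cell and epithelial sums did not overlap between groups, and their part in the results was not tested.

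After BPAF, transcripts of the guardian MCL1 and the BH3-only genes BID and PMAIP1 were lower, by 12.9%, 10.7% and 13.7%. The other 7 members, both effectors among them, did not pass the test. All 10 members were expressed above the filter, and 3 fell and 0 rose at an adjusted p under 0.05 (edgeR quasi-likelihood test, Benjamini-Hochberg). Over all 15490 tested genes, 6.06% were called by that rule, 3.4% lower and 2.65% higher. The chance of a call depends on depth, and among the 8837 more highly expressed genes (mean log2 CPM from 4 upward) the shares were 5.78% lower and 3.28% higher. These are RNA levels in bulk cultures, where fewer cells of a kind and less RNA per cell cannot be told apart, and protein was not measured.

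**Figure D1:**
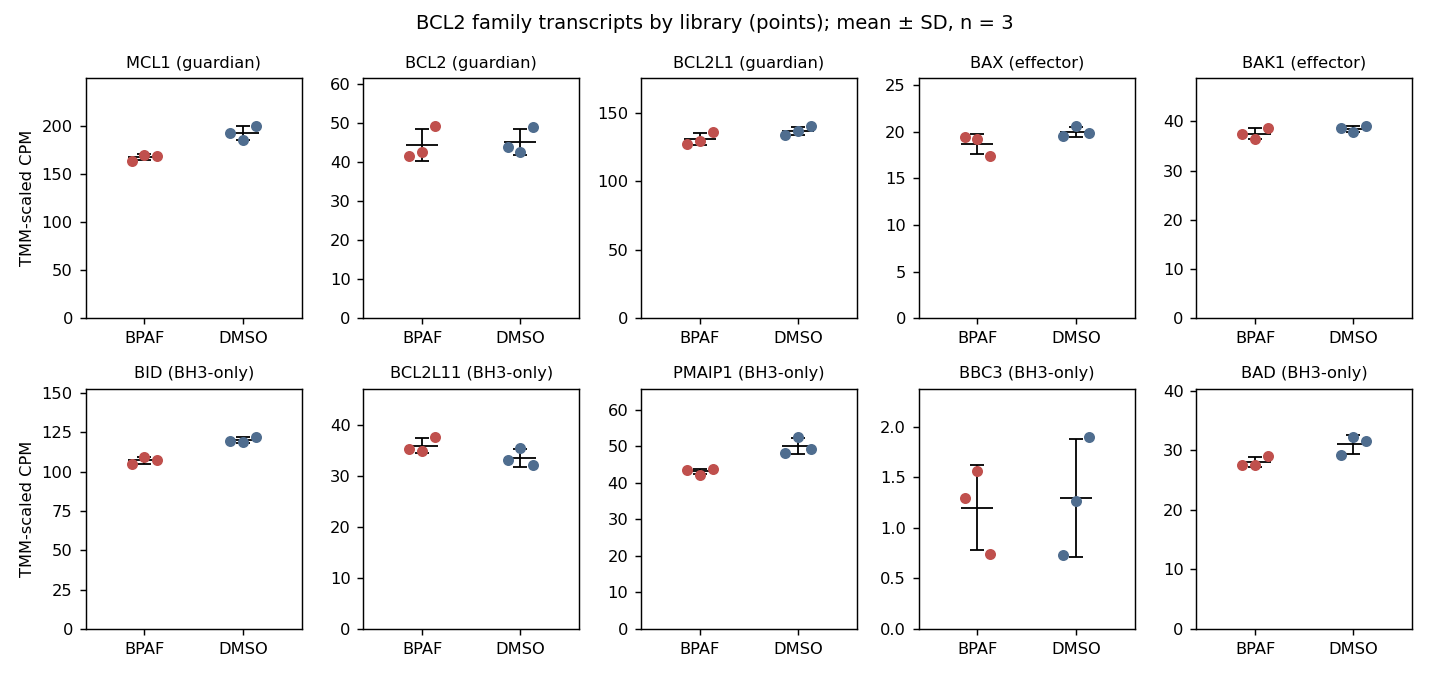
TMM-scaled CPM of each member (vertical axes, each starting at 0) in the 3 BPAF and 3 DMSO libraries (points, replicates left to right), with the mean and SD as bars. The BPAF points lie below all DMSO points for MCL1, BID, PMAIP1, BAX and BAD, and overlap them for the other 5 members.

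Among the guardians, MCL1 (ENSG00000143384, GRCh38 chromosome 1, 150574551 to 150579738, minus strand) sequesters BAK1 and activator BH3-only proteins. MCL1 had 164, 169.6 and 168 CPM in BPAF cells, against 192, 185 and 199 CPM in DMSO cells. Every BPAF library was below every DMSO library. The rounded counts behind these levels were 3537, 3458 and 3866 in BPAF libraries and 4198, 3802 and 4088 in DMSO libraries. The log2 fold change of MCL1 was -0.20 (SE 0.033, 95% interval -0.27 to -0.13), with an edgeR adjusted p of 0.00153. When any 1 library was removed MCL1 still passed, in 6 of 6 fits (adjusted p 0.000947 to 0.0215).

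BCL2L1 (ENSG00000171552, chromosome 20, 31664452 to 31723989, minus strand) encodes BCL-XL, the guardian that binds BAX and most BH3-only proteins. BCL2L1 had 127, 129.7 and 136 CPM in BPAF cells, against 134, 137 and 140.3 CPM in DMSO cells. The highest BPAF library stood above the lowest DMSO library, so the groups overlapped. The log2 fold change was -0.07 (SE 0.035, 95% interval -0.14 to 0.0077, edgeR adjusted p = 0.315). As a percent change of BCL2L1 the interval ran from -9.25% to 0.537%.

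BCL2 (ENSG00000171791, chromosome 18, 63123346 to 63320128, minus strand), the founding guardian, had 41.4, 42.5 and 49.0 CPM in BPAF cells and 43.8, 42.5 and 48.8 CPM in DMSO cells. Replicate 3 was the highest library in both groups, and the ranges overlapped almost wholly. The log2 fold change was -0.02 (SE 0.068, 95% interval -0.16 to 0.12, edgeR adjusted p = 0.920), and its sign turned when BPAF replicate 1 (0.03), BPAF replicate 2 (0.0086) or DMSO replicate 3 (0.04) was left out. A fall in BCL2 of the size seen for MCL1 lay outside that interval.

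Of the effectors, BAX (ENSG00000087088, chromosome 19, 48954815 to 48961798, plus strand) moves from the cytosol to mitochondria when activated. BAX had 19.4, 19.2 and 17.4 CPM in BPAF cells and 19.5, 20.6 and 19.8 CPM in DMSO cells. The groups did not overlap, but the highest BPAF and lowest DMSO libraries differed by little. Its log2 fold change of -0.10 (SE 0.074, 95% interval -0.25 to 0.06) did not pass the edgeR test (adjusted p = 0.515).

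BAK1 (ENSG00000030110, chromosome 6, 33572547 to 33580293, minus strand), the effector that resides in the mitochondrial membrane, had 37.4, 36.4 and 38.7 CPM in BPAF cells and 38.6, 37.9 and 39.0 CPM in DMSO cells. The ranges overlapped. The log2 fold change of BAK1 was -0.04 (SE 0.053, 95% interval -0.15 to 0.07, edgeR adjusted p = 0.782), and as a percent change the interval ran from -9.60% to 5.32%.

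Among the BH3-only genes, BID (ENSG00000015475, chromosome 22, 17734138 to 17774770, minus strand) links death receptors to mitochondria once caspase-8 has cleaved it. BID had 105, 109 and 107 CPM in BPAF cells, against 119, 119 and 122 CPM in DMSO cells. All BPAF libraries were below all DMSO libraries, and the spread within each group was small, with means of 107.2 ± 2.13 CPM in BPAF cells and 120.0 ± 1.61 CPM in DMSO cells (SD, n = 3 each). The log2 fold change of BID was -0.16 (SE 0.035, 95% interval -0.24 to -0.09, edgeR adjusted p = 0.00815). Without BPAF replicate 1 the adjusted p was 0.0671, above the threshold.

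PMAIP1 (ENSG00000141682, chromosome 18, 59899948 to 59904306, plus strand) encodes NOXA, which binds MCL1 and marks it for destruction. PMAIP1 had 43.4, 42.3 and 43.7 CPM in BPAF cells, against 48.2, 52.5 and 49.3 CPM in DMSO cells. The groups did not overlap, and the BPAF libraries lay closer together than the DMSO libraries (SD 0.766 and 2.24 CPM). The log2 fold change of PMAIP1 was -0.21 (SE 0.051, 95% interval -0.32 to -0.11, edgeR adjusted p = 0.0162). The call was lost without BPAF replicate 1 (adjusted p = 0.0665), without BPAF replicate 2 (0.0526) and without DMSO replicate 2 (0.0612), while the log2 fold change stayed between -0.24 and -0.18.

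BAD (ENSG00000002330, chromosome 11, 64269830 to 64284704, minus strand) encodes a sensitizer that binds BCL2 and BCL-XL unless survival kinases phosphorylate it. BAD had 27.5, 27.5 and 29.01 CPM in BPAF cells and 29.1, 32.2 and 31.6 CPM in DMSO cells, without overlap. Its log2 fold change was -0.14 (SE 0.062, 95% interval -0.27 to -0.01), with an unadjusted p of 0.0308 and an edgeR adjusted p of 0.192. In an edgeR fit with an offset for gene length and GC content BAD passed, at -0.25 (adjusted p = 0.0146). That fit was added after the data had been seen. Its calls leaned downward over all 15122 genes tested in it, with 1003 lower and 306 higher. By the longest annotated transcript of each member, BAD has the second-highest GC content, 66.3%, after BBC3 with 69.7%.

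BCL2L11 (ENSG00000153094, chromosome 2, 111119378 to 111168447, plus strand) encodes BIM, an activator that binds all guardians and is needed for deletion of T cells. BCL2L11 had 35.3, 35.0 and 37.7 CPM in BPAF cells and 33.2, 35.5 and 32.2 CPM in DMSO cells. It was the 1 member with a positive log2 fold change, 0.10 (SE 0.058, 95% interval -0.02 to 0.22), but the groups overlapped and the edgeR adjusted p was 0.360.

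BBC3 (ENSG00000105327, chromosome 19, 47220822 to 47232766, minus strand) encodes PUMA, a BH3-only product that binds all guardians. BBC3 had 28, 32 and 17 counts in BPAF libraries and 16, 26 and 39 counts in DMSO libraries, which was 1.29, 1.57 and 0.741 CPM in BPAF cells and 0.732, 1.26 and 1.90 CPM in DMSO cells. With so few reads the 95% interval of its log2 fold change of -0.11 ran from -0.87 to 0.64 (edgeR adjusted p = 0.912), and the sign turned without BPAF replicate 3 (0.14) or DMSO replicate 3 (0.26). As a percent change of BBC3 the interval ran from -45.3% to 55.9%, and differences within it were not detectable at this depth.

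By direction, 9 of the 10 members had a log2 fold change below 0, as did 49.2% of all tested genes. The members' median was -0.11, against 0.0019 over all tested genes. In CPM, 5 members were lower with no overlap between groups (MCL1, BID, PMAIP1, BAX and BAD), a state that 12.8% of tested genes shared. Summed over the guardians, the level was 332, 342 and 353 CPM in BPAF cells against 370.0, 364 and 388 CPM in DMSO cells. The BH3-only sum was 213, 216 and 218 CPM in BPAF cells against 231, 240.5 and 237 CPM in DMSO cells, and the effector sum was 56.8, 55.6 and 56.1 CPM in BPAF cells against 58.1, 58.5 and 58.8 CPM in DMSO cells. None of the 3 sums overlapped between groups. The guardian and BH3-only sums include the members that passed the test. Guardian sums averaged 342 CPM in BPAF cells and 374 in DMSO cells, and MCL1 alone 167 and 192. BH3-only sums averaged 216 and 236 CPM, BID 107 and 120, and PMAIP1 43.1 and 50.0, while BCL2L11 was higher, at 36.0 and 33.6. Neither effector passed the test. The share of comparable sums of other genes without overlap was not computed. In TPM, the length-scaled unit described further on, the BH3-only sum was 254, 259.5 and 261 in BPAF cells against 272, 273 and 264 in DMSO cells, without overlap, and the guardian and effector sums overlapped.

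Pairs of members were set side by side after their values had been seen, as ratios of CPM without a test. MCL1 over its partner PMAIP1 was 3.77, 4.01 and 3.85 in BPAF cells and 3.98, 3.52 and 4.04 in DMSO cells. MCL1 over BID was 1.56, 1.55 and 1.57 in BPAF cells and 1.61, 1.55 and 1.63 in DMSO cells. Both of these ratios overlapped between groups. MCL1 over BCL2L11 was 4.63, 4.84 and 4.47 in BPAF cells against 5.79, 5.21 and 6.19 in DMSO cells, without overlap. MCL1 over the other guardian BCL2L1 was 1.29, 1.31 and 1.24 in BPAF cells against 1.43, 1.35 and 1.42 in DMSO cells, also without overlap. In TPM the BCL2L11 ratio was higher in BPAF replicate 1 (62.66 over 10.45) than in DMSO replicate 2 (66.14 over 11.72), so the groups overlapped. The BCL2L1 ratio in TPM was nearly equal in BPAF replicate 2 (64.09 over 75.38) and DMSO replicate 2 (66.14 over 77.72). MCL1 alone was already lower without overlap, and the share of other gene pairs with such ratios was not computed.

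**Figure D2:**
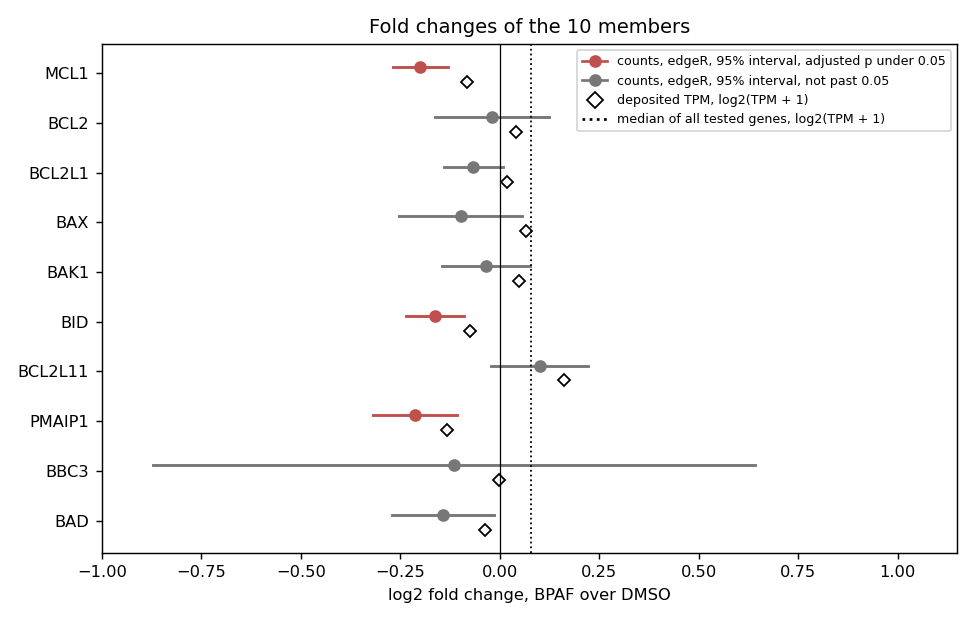
Log2 fold change of BPAF over DMSO (horizontal axis) for the 10 members (rows) from counts with the edgeR 95% interval, and from deposited TPM on the log2(TPM + 1) scale (open diamonds). MCL1, BID and PMAIP1 lie at -0.20, -0.16 and -0.21 from counts and at -0.08, -0.07 and -0.13 from TPM, where the dotted line marks the median of all tested genes, 0.08.

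The authors' second table gives TPM, by definition an abundance scaled by length so that levels can be compared between members. The lengths used are not given, so the order below is that of the deposited values. BID was the highest member in both groups, at 138.5 ± 1.29 TPM in BPAF cells and 146.0 ± 7.62 TPM in DMSO cells (SD, n = 3 each). In BPAF cells BCL2L1 (77.4 TPM), BAD (69.4), MCL1 (63.7), BAX (60.02), PMAIP1 (37.2), BAK1 (27.5), BCL2L11 (11.8), BCL2 (10.0) and BBC3 (1.29) followed by mean TPM. The order in DMSO cells was the same, with BCL2L1 at 76.3 TPM, BAD at 71.3, MCL1 at 67.6, BAX at 57.0, PMAIP1 at 40.9, BAK1 at 26.6, BCL2L11 at 10.5, BCL2 at 9.68 and BBC3 at 1.32. Neighbours whose libraries overlapped were MCL1 with BAX and BCL2L11 with BCL2 in BPAF cells, and BCL2L1 with BAD, BAD with MCL1 and BCL2L11 with BCL2 in DMSO cells. BCL2 was the lowest guardian in every library.

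**Figure D3:**
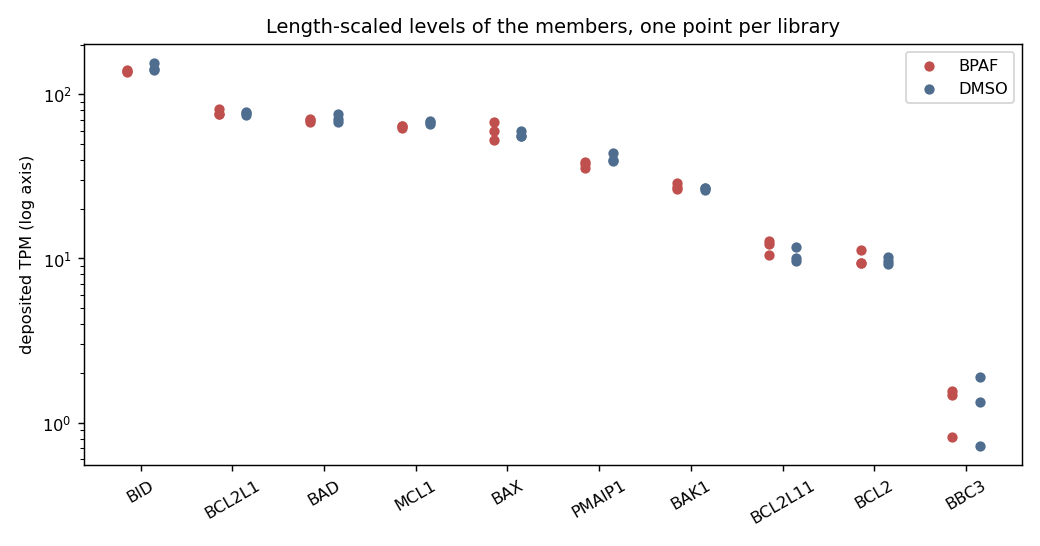
Deposited TPM on a log axis (vertical) for each member (horizontal), with 1 point per library and BPAF left of DMSO. BID is the highest member, at 137 to 139.5 TPM in BPAF cells and 140.1 to 155 TPM in DMSO cells, and BBC3 the lowest, at 0.820 to 1.57 TPM in BPAF cells and 0.720 to 1.89 TPM in DMSO cells.

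On the TPM scale the same 3 members were lower without overlap, and no other. For BID and PMAIP1 the highest BPAF and lowest DMSO libraries differed by little. MCL1 had 62.7, 64.1 and 64.3 TPM in BPAF cells against 67.4, 66.1 and 69.1 TPM in DMSO cells. PMAIP1 had 37.4, 35.7 and 38.5 TPM in BPAF cells against 39.6, 43.8 and 39.1 TPM in DMSO cells, and BID had 137, 139 and 139.5 TPM in BPAF cells against 155, 140.1 and 143 TPM in DMSO cells. That pattern was less common in TPM than in CPM, as 3.5% of tested genes were lower in TPM without overlap. No member was higher in TPM without overlap, although 21.0% of tested genes were. The whole TPM scale was shifted between groups: over all tested genes the median log2 fold change was 0.08 with a pseudocount of 1, and 26.2% of genes were below 0. Relative to that median MCL1 stood at -0.16, BID at -0.15 and PMAIP1 at -0.21. None of the members passed the limma test on log2(TPM + 1), in which only 1 gene of 15490 did and 2699 had an unadjusted p under 0.05. BCL2, BCL2L1, BAX and BAK1 had positive log2 fold changes on that scale (0.04, 0.02, 0.07 and 0.05), under the median of all genes, and BCL2L11 was above that median at 0.16. On that scale 5 of the 10 members were below 0.

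The 2 tables did not scale alike for every member. TPM per CPM of MCL1 was 0.383, 0.378 and 0.382 in BPAF libraries and 0.351, 0.358 and 0.347 in DMSO libraries. For BAX it was 3.48, 3.12 and 3.04 in BPAF libraries and 2.84, 2.72 and 3.01 in DMSO libraries, the widest relative range of the 10 members (1.28 between the highest and the lowest library). BAX therefore had 67.4, 59.7 and 52.9 TPM in BPAF cells and 55.5, 55.9 and 59.8 TPM in DMSO cells, which overlapped. Whether transcript lengths used by the authors varied between libraries was not tested.

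Some members share their locus with another gene. BAD lies opposite GPR137, which had a mean of 566.5 counts over the 6 libraries, and BCL2L11 lies within the region of the opposite-strand transcript MIR4435-2HG, with a mean of 409.5 counts. The libraries were strand-specific per the labels' protocols, but the sources used here do not give the strand setting of the counting, so reads of these pairs may not have been told apart. Deposited counts of BAK1, BCL2L11 and BAD held decimals in all 6 libraries, while those of MCL1, BCL2, BID, PMAIP1 and BBC3 were whole numbers in all 6. The genes overlapping MCL1, BID, BAK1, BCL2, BCL2L1 and BBC3 had means under 2 counts.

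Upstream sequence of the members was searched for 8 short motifs, only some of which relate to regulators described below. Stretches are printed for TGACGT alone, a choice that rests on no test. Windows of 300 bases, 250 of them before the start, were taken from RefSeq (GRCh38.p14) for 9 of the 10 members, 15 windows in all, and both strands were read. MCL1 was not among the 9. Members are counted by gene, some of which have several windows, whereas the background shares are per window, so the counts and shares are not in like units. TGACGT, the core of the cAMP response element that CREB and ATF proteins can bind, was found in windows of PMAIP1 and BAD and in 7.09% of 34943 windows. It is shown at the capitals in 56 bases that end just before the GENCODE start of PMAIP1 (chr18:59899892-59899947, plus strand), which lies upstream of its RefSeq start, and in 66 bases upstream of BAD (chr11:64284741-64284806, minus strand).
PMAIP1: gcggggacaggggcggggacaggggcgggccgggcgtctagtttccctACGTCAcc
BAD: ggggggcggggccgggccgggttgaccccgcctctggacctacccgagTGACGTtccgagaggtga
The capitals in PMAIP1 are the motif on the other strand. CACGTG, the E-box, was present for BAX, BBC3 and BID and in 6.32% of all windows, with 4 copies in the BAX window, and GGGCGG, the GC box, for 6 members and in 42.5% of windows. TGACTCA, the AP-1 site, was found in the BBC3 window and in 4.22% of windows. No member window held TGACGTCA (1.63% of windows, contains TGACGT), TGATGCAA (0.776%), CCGGAAGT (3.39%) or the estrogen response element, written as GGTCA, 3 bases of any kind and TGACC (0.0401%). These matches are letters in a window, not sites of binding.

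Among genes that may act on the members, the regulators JUN and ATF4 were lower. Of the 17 tested and reported transcriptional regulators of BH3-only genes, 0 rose and 2 fell, with a list median of -0.03. JUN, a subunit of AP-1 that can induce BCL2L11, had 6.71, 8.14 and 5.58 CPM in BPAF cells against 12.9, 11.6 and 13.7 CPM in DMSO cells (log2 fold change -0.91, edgeR adjusted p = 0.000487). ATF4, the stress factor that activates PMAIP1, had 395, 407 and 377 CPM in BPAF cells against 447, 442 and 448 CPM in DMSO cells (-0.18, edgeR adjusted p = 0.00155). JUN and ATF4 did not overlap between groups and passed without any 1 library.

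Downstream of the mitochondrion, 1 of 17 tested and reported caspase and apoptosome genes fell and 0 rose, with a list median of 0.02. CYCS, cytochrome c, had 242, 244 and 239 CPM in BPAF cells against 267, 259.6 and 283 CPM in DMSO cells (-0.16, edgeR adjusted p = 0.00656). CYCS did not overlap between groups and passed without any 1 library, but its log2 fold change was 0.01 on the log2(TPM + 1) scale.

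In the wider family, BNIP1, a BH3-bearing membrane-trafficking protein, was the 1 gene of 16 tested that fell, and 0 rose (list median -0.06). BNIP1 had 16.8, 15.5 and 16.1 CPM in BPAF cells against 21.0, 18.3 and 19.3 CPM in DMSO cells (-0.28, edgeR adjusted p = 0.0428), a call lost in 5 of the 6 fits with 1 library left out. Of 25 genes for the turnover of MCL1 and BH3-only proteins, 1 fell and 0 rose (list median -0.0053). It was SKP1, a ubiquitin ligase subunit, with 281, 284 and 276 CPM in BPAF cells against 304, 291 and 308 CPM in DMSO cells (-0.10, edgeR adjusted p = 0.0435), a call likewise lost in 5 of the 6 fits.

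Neither the inhibitors of apoptosis nor the death receptors held a call. Of 7 tested inhibitor of apoptosis genes, 0 rose and 0 fell in edgeR, 2 had an unadjusted p under 0.05, and the median was -0.01. The smallest p-values were those of XAF1, an antagonist of XIAP (0.14, adjusted p = 0.162), and NAIP, an inflammasome sensor (0.27, adjusted p = 0.210). Of 13 tested death receptor and adaptor genes, 0 rose and 0 fell, 1 had an unadjusted p under 0.05, and the median was 0.04. TNFRSF10B, a receptor for TRAIL (0.13, adjusted p = 0.171), and TRADD, an adaptor of TNF receptors (0.12, adjusted p = 0.410), had the smallest p-values. Across these 6 lists, 95 distinct genes were tested and are reported, of which 5.26% fell and 0 rose. Over all tested genes 3.4% fell, and among those with a mean log2 CPM from 4 upward 5.78% did, so the share of the lists was near the background.

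**Figure D4:**
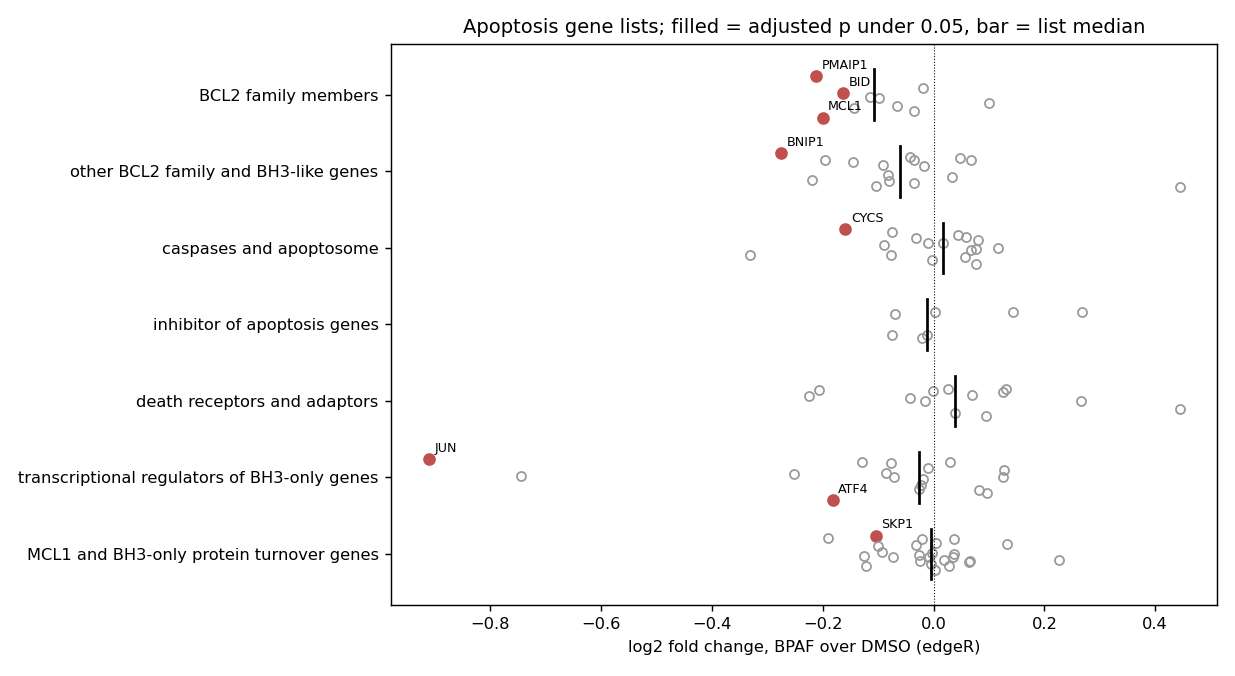
Log2 fold change of BPAF over DMSO (horizontal axis) of the tested genes reported in the family and the 6 other apoptosis lists (rows), with filled points for an edgeR adjusted p under 0.05 and bars for list medians. The family's median lies at -0.11, those of the other lists between -0.06 and 0.04, and the filled points outside the family are BNIP1, CYCS, JUN, ATF4 and SKP1.

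The genes whose CPM followed MCL1 most closely were found by Pearson r of log2 CPM over the 6 libraries, as a description. They were SF3A3, a splicing factor subunit (r = 0.995), RPL14, a ribosomal protein (0.993), and THAP1, a zinc finger factor (0.993). RPL14 had 564, 572 and 572 CPM in BPAF cells against 625, 600.4 and 639 CPM in DMSO cells, and it fell (-0.13, edgeR adjusted p = 0.0127). SF3A3 (-0.09, edgeR adjusted p = 0.0667) and THAP1 (-0.22, edgeR adjusted p = 0.0607) did not pass the test. The 6 points of each correlation fall into the 2 groups, and no test was made of it.

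The calls of the 3 lower members were compared across 18 alternative settings. DESeq2, with and without independent filtering, and limma-voom called the same 3 members as edgeR. All of the count-based settings gave MCL1, BID and PMAIP1 a log2 fold change below 0.

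**Figure D5:**
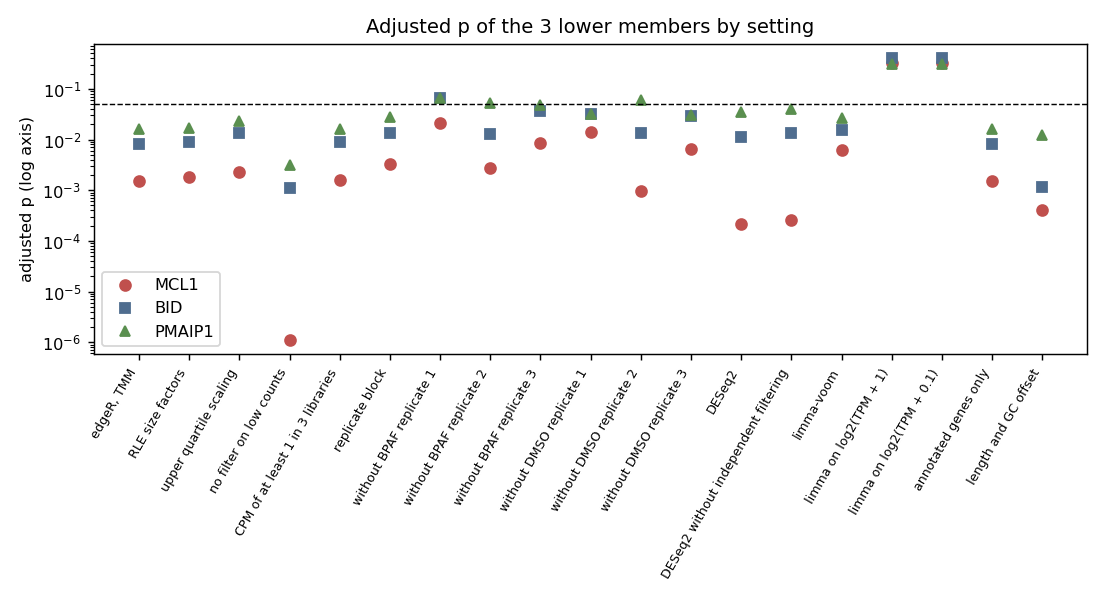
Adjusted p (vertical, log axis) of MCL1, BID and PMAIP1 under each way of processing (horizontal), with the dashed line at 0.05. MCL1 lies under the line in every count-based setting, and all 3 lie above it in both TPM settings, where the adjusted p reaches 0.406 for BID.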

How the data were processed

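Messenger RNA libraries from 3 BPAF and 3 DMSO cultures of Jurkat cells were analysed. FastQC, cutadapt, HISAT2 and featureCounts, with GRCh38 and hg38 as builds, are named in the submitters' processing notes. The authors deposited estimated counts per gene, of which 59.1% to 61.7% of values above 0 were whole (tolerance 1e-09), and the sources used here do not say how the decimals arose. The authors also deposited TPM values, whose computation is likewise not given. Assembled loci, 192 of the features, took 0.243% to 0.271% of counts.

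Estimated counts were rounded and, after filterByExpr and TMM scaling, compared by the robust quasi-likelihood test of edgeR 4.0.16 (R 4.3.3) with no covariate. P-values were adjusted by Benjamini-Hochberg over all 15490 tested genes, with a threshold of 0.05. SE was the size of the log2 fold change divided by the square root of F. The biological coefficient of variation was 3.77%. Precision depends on the totals of 20253656 to 22617613 counts per library and on the spread between cultures. Library pairs were compared by chi-square per degree of freedom, and none agreed within sampling noise. Pairs within a group had 2.39 to 4.14 and pairs of a BPAF with a DMSO library 3.89 to 7.70, so the ranges overlapped.

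The members and lists were chosen with earlier results of these data known. All members were named, and from each other list every gene past the threshold (up to 8), or otherwise the 2 with the smallest p, and the 3 genes most like the member with the smallest p. Alternatives used DESeq2 1.42.0 and limma 3.58.1. Positions are those of GENCODE release 29. No protein sequence was used. Some genes and 1 gene list were left out and are not reported here, so list counts and medians cover the genes reported.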

Additional observations from a re-analysis of the deposited data

How the results depend on the processing

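Of 179 member values recomputed under the alternatives, 154 kept their direction and side of the threshold, 10 lost a call, 1 gained one and 14 changed sign. The count of genes called, 938, was 322 to 861 with 1 library left out (322 without BPAF replicate 1, 392 without BPAF replicate 3, 482 without DMSO replicate 1), 1 with limma on log2(TPM + 1) and 2 on log2(TPM + 0.1), where 2699 and 2666 had an unadjusted p under 0.05. Members called, 3, were 1 to 3 with 1 library left out (1 without BPAF replicate 1) and 0 on both TPM scales. Calls in the other lists, 5, were 3 to 6 with 1 library left out (3 without any 1 BPAF replicate or without DMSO replicate 1), 3 in DESeq2, 3 in DESeq2 without independent filtering, 3 in limma-voom and 0 and 0 on the TPM scales. DESeq2 called 672 genes (631 without independent filtering). With upper quartile scaling 461 genes were higher and 400 lower. The length and GC offset, added after the data had been seen, called 1309 (306 higher, 1003 lower), against 411 higher and 527 lower in the main result, and moved the median of all genes to -0.03. The offset gave 4 members, with BAD added. Deviations from the group means gave no sign of pairing by replicate number (same-number correlations 0.0010, -0.04 and 0.01), and not every sample correlated best with its own number. As deviations within each group of 3 sum to 0, these correlations balance around 0 and do not settle whether samples were paired. With the replicate number as a block 826 genes, 3 members and 4 list genes were called. The sign changed for BCL2 (-0.10 to 0.0389 with 1 library left out, 0.0419 with TPM + 1, 0.0454 with TPM + 0.1) and BBC3 (-0.41 to 0.26 with 1 library left out, 0.0126 with TPM + 0.1). It also changed with TPM + 1 and TPM + 0.1 for BCL2L1 (0.0184, 0.0186), BAX (0.0667, 0.0676), BAK1 (0.0484, 0.05001), CYCS (0.0128, 0.0128) and LCK (0.0360, 0.0360), with TPM + 1 for COL1A1 (0.0013) and with the offset for TRBC2 (-0.0036). The cause of these changes was not tested. Depth limits BBC3 most.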
